A study of Homo sapiens with 6 samples.

Results

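The genes described here are 9 transcripts whose genes the transcription factor p53 switches on, among them MDM2, the gene for its main antagonist. They were taken by symbol (MDM2, CDKN1A, RBM38, SESN1, TP53INP1, PLK2, BBC3, GDF15 and BTG2) from a table of 60669 genes, of which 15637 had a mean normalized count of at least 10 and were tested, all 9 among them. The list was drawn up with the same comparison in view, RBM38 having been seen among its largest rises, so the fold changes of the 9 genes are given as a description and carry no test. RNA came from LX-2, a wild-type human line labelled as activated hepatic stellate cells, the liver cells that deposit scar matrix. The cells had received a lipid-delivered siRNA against ADAMTS12 (siADAMTS12, 1 sequence) or a commercial negative-control siRNA (siCTL) and were collected 48 h later, with 3 libraries in each group. The labels do not say whether the replicates were separate cultures, so p-values measure only the spread between these libraries, which may be technical.

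p53 is held at a low level by MDM2, a ubiquitin ligase that marks it for destruction, and MDM2 is itself a p53 target, which closes a feedback loop. When p53 is released by DNA damage or other stress, it binds pairs of decamers near its target genes. These genes stop the cell cycle (CDKN1A, BTG2), damp growth signalling and support autophagy (SESN1, TP53INP1), start cell death (BBC3) or send a signal out of the cell (GDF15). LX-2 descends from stellate cells transformed with the simian virus large T antigen, a protein that binds p53, and this limits the line as a model of p53 signalling.

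A pair of sequence sets bears on these genes. The first is the siRNA, because bases 2 to 8 of its guide strand (the seed, in capitals in the guide) can pair with the 3′ UTRs of other transcripts. The capitals in the sense strand mark the 7 bases that read as such a match.
siADAMTS12 sense strand: gccaaaguuugGAGGGAAa
siADAMTS12 guide strand: uUUCCCUCcaaacuuuggc
Of the 9 genes, 4 held at least the 6-base match AGGGAA in the 3′ UTR of the transcript chosen for each (GENCODE 29), and only BTG2 held the match to guide positions 2 to 8. Among 12606 protein-coding genes searched, 41.4% held the 6-base match or a longer one, and 15.6% held the match to positions 2 to 8. The sites in RBM38, PLK2 and BTG2 are shown as DNA with the paired bases in capitals, together with the A that follows the match in RBM38. They lie in the 3′ UTRs, at chr20:57408248-57408277 (plus strand), chr5:58454512-58454541 (minus strand) and chr1:203308115-203308144 (plus strand) on GRCh38.
RBM38: atgcctgactccAGGGAAAcctgaaagcaa
PLK2: tgtgagatctacAGGGAAgccaaaagaatg
BTG2: gaggggggggagGAGGGAActggaggttat
BTG2 held 3 further 6-base matches, and TP53INP1 held 1. MDM2, CDKN1A, SESN1, BBC3 and GDF15 held none in the transcripts searched.

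The second set is the p53 response elements, shown because they are the feature these genes are known for. Windows from 250 bases before to 50 after the transcription starts listed by RefSeq (GRCh38.p14) were searched for the p53 consensus, 2 decamers with a spacer of at most 1 base. Both C(A or T)(A or T)G cores had to be intact, and at most 3 mismatches were allowed in all. The consensus is its own reverse complement, so a single pass covers both strands. Only 0.820% of 35116 windows held such an element, and of the 8 genes with a window, 2 held one in at least 1 window. The share counts windows and the 2 counts genes. A gene with several starts has several windows, so these values are not directly comparable. SESN1 held it 49 bases before the innermost of its 3 listed starts, at chr6:109009018-109009037 (minus strand). GDF15 held it from 28 bases after its start, at chr19:18386186-18386205 (plus strand). The capitals mark the 2 cores.
SESN1: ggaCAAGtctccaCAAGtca
GDF15: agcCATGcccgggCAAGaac
A match is a description of the letters, and elements farther from the start were not searched.

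**Figure D1:**
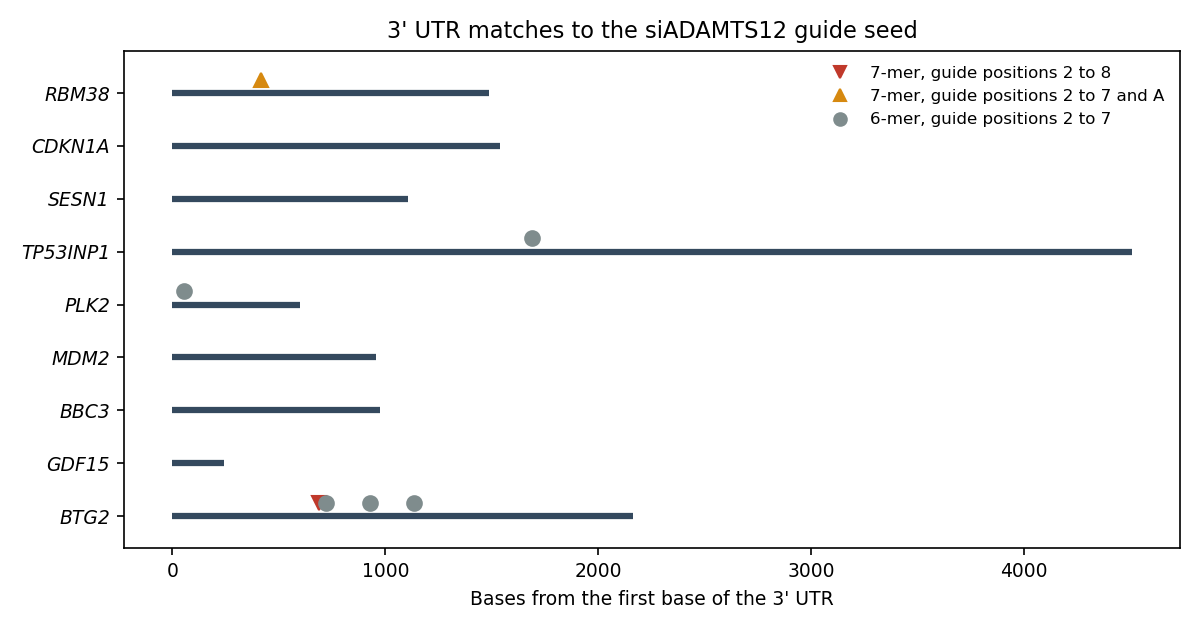
Lines show the 3′ UTR of the chosen transcript of each gene, in bases from its first base, and symbols show matches to the siADAMTS12 guide seed. BTG2 holds the match to positions 2 to 8 and 3 shorter ones, RBM38, PLK2 and TP53INP1 hold 1 match each, and 5 genes hold none.

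In the libraries as a whole, deposited normalized counts summed to between 30678468 and 31415206 with siADAMTS12 and between 33576945 and 34072515 with siCTL. The target transcript ADAMTS12 fell to 28.5% of its siCTL level (3740 ± 320 with siADAMTS12 and 13122 ± 782 with siCTL, SD, n = 3 each; limma log2 fold change -1.81 ± 0.07 SE, adjusted p = 4.81e-08). Of the genes tested, 11.5% rose and 15.5% fell (limma with Benjamini-Hochberg adjustment over all 15637 genes, adjusted p under 0.05). These were 1798 rises and 2424 falls, and after quantile normalization 2175 genes rose and 2078 fell. Of 9 stellate markers, COL1A1 and VIM were among the abundant ones and DES, the desmin gene, was at 0 in 5 of the 6 libraries. Their summed counts were 286029 to 308677 with siADAMTS12 and 377344 to 417516 with siCTL. All 5 leukocyte markers stayed under 10 in every library, as did 5 of 6 hepatocyte markers (summed over each list, 4 to 9 and 23 to 28 with siADAMTS12, 5 to 14 and 18 to 20 with siCTL). Endothelial markers summed to 65 to 79 with siADAMTS12 and 139 to 157 with siCTL, mostly KDR, and cholangiocyte markers to 1507 to 1826 and 1592 to 1956, nearly all SOX9. Fewer cells of a kind and less RNA per cell cannot be told apart in bulk RNA, and the part of these shifts in the results below was not tested.

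With siADAMTS12, RBM38, CDKN1A, SESN1 and TP53INP1 were higher in every library than in any siCTL library. RBM38 stood at 3.14 times its siCTL mean, CDKN1A and SESN1 at 1.54 and 1.53 times, and TP53INP1 at 1045 normalized counts against 698. PLK2 was lower in every library, at 0.653 times. MDM2, BBC3, GDF15 and BTG2 overlapped between the groups. The groups thus did not overlap in 5 of the 9 genes, beside 40.9% of all genes tested, and because the genes were chosen from this comparison nothing is read from that count. The median log2 fold change of the 9 genes was 0.37, beside 0.005 over all genes tested, and for the same reason nothing is read from that difference.

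**Figure D2:**
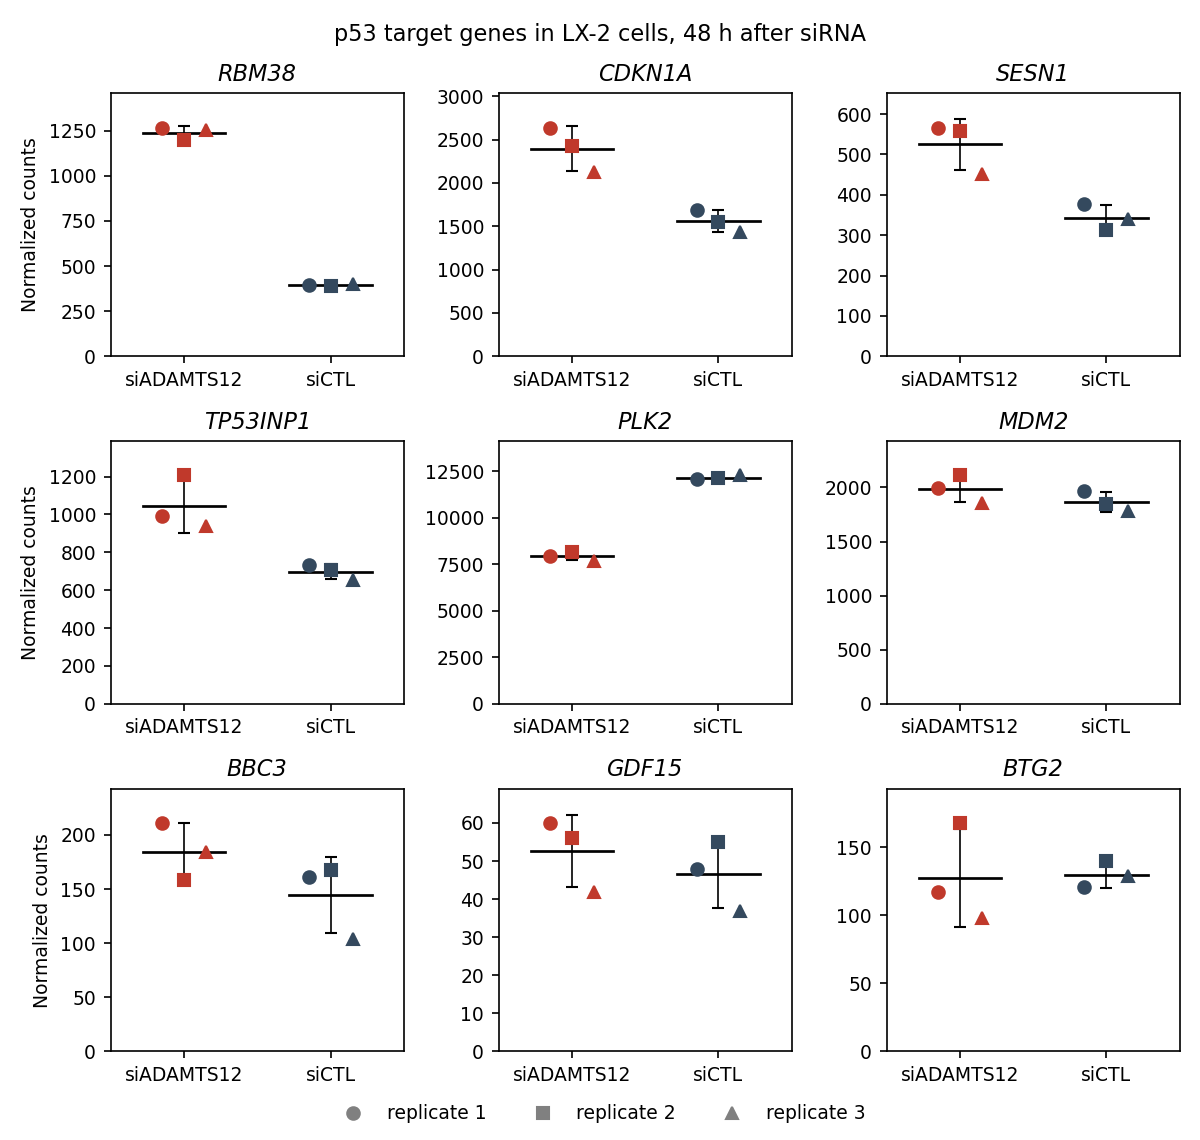
Each panel shows one gene, with its normalized count in each siADAMTS12 library (left, red) and each siCTL library (right, dark), the mean as a line and the SD as a bar; symbols mark the replicate number and every axis starts at 0. RBM38 separates most widely, with 1200 to 1266 in siADAMTS12 libraries and 387 to 399 in siCTL libraries, while MDM2, BBC3, GDF15 and BTG2 overlap.

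MDM2 (ENSG00000135679; GRCh38, chromosome 12, 68808176 to 68850686, plus strand) had normalized counts of 1998, 2111 and 1860 in siADAMTS12 replicates 1, 2 and 3, and 1965, 1848 and 1786 in siCTL replicates 1, 2 and 3. The ranges overlapped, although each siADAMTS12 library lay above the siCTL library with the same number, by ratios of 1.02, 1.14 and 1.04. The mean was 1990 ± 126 with siADAMTS12 and 1866 ± 90.9 with siCTL (SD, n = 3 each), a log2 fold change of 0.09 ± 0.07 (SE).

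Among the genes that act on the cell cycle, CDKN1A (ENSG00000124762; chromosome 6, 36676460 to 36687339, plus strand) encodes p21, the inhibitor of cyclin-dependent kinases that carries much of the p53 arrest. It had 2636, 2425 and 2128 normalized counts in siADAMTS12 replicates 1, 2 and 3, and 1689, 1549 and 1436 in the siCTL replicates. The lowest siADAMTS12 library lay above the highest siCTL library, and the same-numbered ratios were 1.56, 1.57 and 1.48. The log2 fold change was 0.62 ± 0.09 (SE). In each group replicate 3 was the lowest library for CDKN1A, as it was for MDM2, TP53INP1 and GDF15.

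RBM38 (ENSG00000132819; chromosome 20, 57391407 to 57409333, plus strand) encodes an RNA-binding protein that stabilises the CDKN1A transcript. It had 1266, 1200 and 1251 normalized counts with siADAMTS12, against 397, 387 and 399 with siCTL. The spread within groups was small, with coefficients of variation of 2.79% with siADAMTS12 and 1.63% with siCTL, and the same-numbered ratios were 3.19, 3.10 and 3.14. Its log2 fold change of 1.65 ± 0.07 (SE) ranked 13 from the top among all genes tested, and those of CDKN1A, SESN1 and TP53INP1 ranked 708, 735 and 837. Its own 3′ UTR held the match to guide positions 2 to 7 followed by A, shown above.

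PLK2 (ENSG00000145632; chromosome 5, 58453982 to 58460260, minus strand), a kinase of the polo family with roles in centriole duplication and stress checkpoints, moved the other way. It had 7975, 8163 and 7704 normalized counts with siADAMTS12, against 12078, 12144 and 12285 with siCTL. These libraries were far apart relative to their spread, and PLK2 was lower with siADAMTS12 at every replicate number. The log2 fold change was -0.61 ± 0.06 (SE), rank 935 from the bottom, and after quantile normalization it was -0.46. The 6-base match in its 3′ UTR is shown above.

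BTG2 (ENSG00000159388; chromosome 1, 203305491 to 203309602, plus strand) encodes an antiproliferative protein that recruits the deadenylase that shortens poly(A) tails. Its normalized counts were 117, 168 and 98 with siADAMTS12, against 121, 140 and 129 with siCTL. The siADAMTS12 libraries lay on both sides of the siCTL libraries and varied more, with an SD of 36.2 against 9.54. Its log2 fold change of -0.06 ± 0.19 (SE) became 0.11 without siADAMTS12 replicate 3, so no direction can be given. BTG2 was the only one of the 9 with the match to guide positions 2 to 8.

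Of the genes for growth signalling and autophagy, SESN1 (ENSG00000080546; chromosome 6, 108986437 to 109094819, minus strand) encodes a sestrin, which restrains the growth kinase complex mTORC1. It had 566, 557 and 452 normalized counts with siADAMTS12, against 376, 313 and 340 with siCTL. All siADAMTS12 libraries were above all siCTL libraries, and the log2 fold change was 0.61 ± 0.11 (SE). Its same-numbered ratios spread from 1.33 in replicate 3 to 1.78 in replicate 2.

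TP53INP1 (ENSG00000164938; chromosome 8, 94925972 to 94949411, minus strand) encodes a stress protein that acts in the nucleus and in autophagy. It had 991, 1206 and 938 normalized counts with siADAMTS12, against 734, 705 and 654 with siCTL. The groups did not overlap, with replicate 2 the highest of the siADAMTS12 libraries. The log2 fold change was 0.58 ± 0.10 (SE), and leaving out single libraries or changing the processing moved it between 0.47 and 0.65.

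BBC3 (ENSG00000105327; chromosome 19, 47220822 to 47232766, minus strand) encodes PUMA, a BH3-only protein that triggers cell death at the mitochondrion. It had 211, 158 and 184 normalized counts with siADAMTS12, against 161, 168 and 104 with siCTL. The ranges overlapped, and the same-numbered library was higher with siADAMTS12 for replicates 1 and 3 but not for replicate 2. The log2 fold change of 0.37 ± 0.19 (SE) was 0.15 without siCTL replicate 3, the lowest of the 6 libraries, and 0.50 without siCTL replicate 2.

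GDF15 (ENSG00000130513; chromosome 19, 18374731 to 18389176, plus strand) encodes a secreted stress cytokine. It was scarcely expressed, at 60, 56 and 42 normalized counts with siADAMTS12 and 48, 55 and 37 with siCTL. The ranges overlapped from 42 to 55, with siADAMTS12 replicates 1 and 2 above every siCTL library, and the same-numbered ratios were 1.25, 1.02 and 1.14. The log2 fold change was 0.17 ± 0.22 (SE), or 0.02 without siCTL replicate 3. At these levels a change of this size was not detectable against the spread between libraries.

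**Figure D3:**
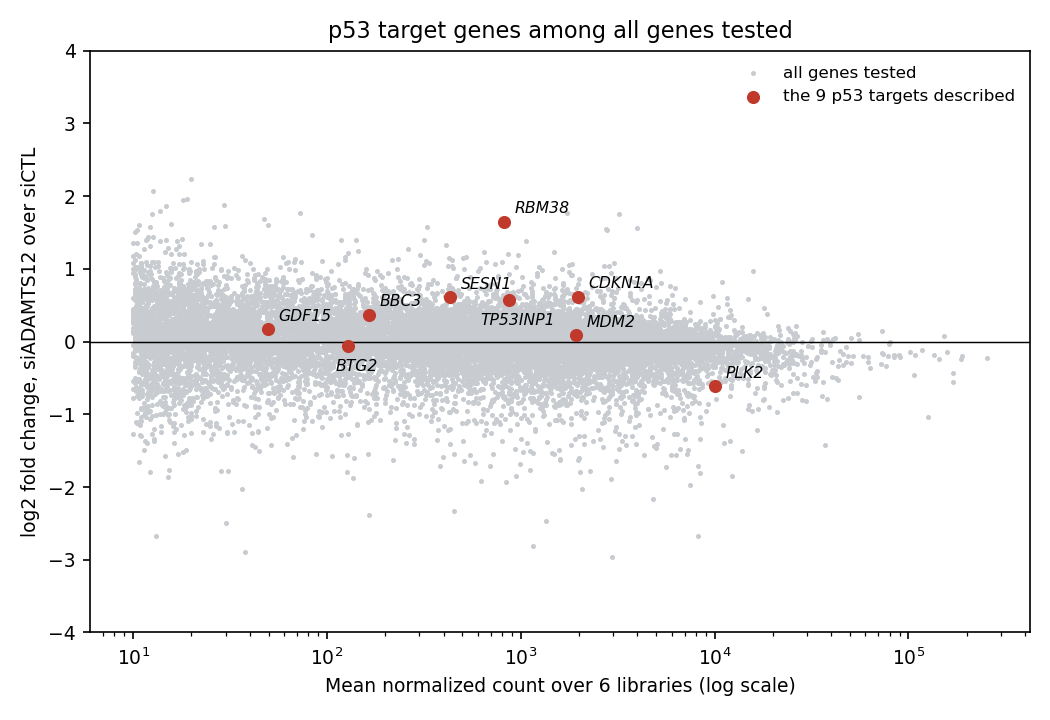
The log2 fold change of siADAMTS12 over siCTL (vertical axis) is plotted against the mean normalized count over the 6 libraries (horizontal axis, log scale) for all 15637 genes tested (grey) and the 9 p53 targets (red). RBM38 stands above the cloud, PLK2 lies below 0 among the abundant genes, and BTG2, MDM2 and GDF15 lie near 0.

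Levels of the 9 genes were compared with each other per kilobase (kb) of the chosen transcript, and this order depends on which transcript is taken. With siADAMTS12, PLK2 was the most abundant, at 2685 ± 78.0 normalized counts per kb, followed by CDKN1A (1099 ± 117), MDM2 (789 ± 49.8) and RBM38 (520 ± 14.5). TP53INP1, SESN1 and BBC3 came next at 185 ± 25.2, 150 ± 18.1 and 100 ± 14.4 per kb, and BTG2 and GDF15 were lowest at 47.1 ± 13.3 and 43.9 ± 7.88 per kb (SD, n = 3). Only that last pair of neighbours overlapped between libraries. With siCTL, PLK2 stood at 4111 ± 35.7 per kb and RBM38 at 166 ± 2.70 per kb. There the ranges of MDM2 (740 ± 36.0) and CDKN1A (715 ± 58.1) overlapped, as did those of SESN1 (97.7 ± 9.01) and BBC3 (78.5 ± 19.1), and of BTG2 (47.9 ± 3.52) and GDF15 (38.9 ± 7.56). Within each siCTL library MDM2 still lay above CDKN1A, by little (779 against 775, 732 against 711 and 708 against 659 per kb), and BTG2 above GDF15, whereas SESN1 lay above BBC3 in 2 of the 3. CDKN1A lay above MDM2 in all 3 siADAMTS12 libraries.

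The third siADAMTS12 library was the lowest of its group for 7 of the 9 genes, beside 31.4% of all genes tested, the exceptions being RBM38 and BBC3. It was the highest of its group for 0 of the 9, beside 26.0% of all genes tested. The third siCTL library was the lowest of its group for 5 of the 9, beside 31.9% of all genes tested, and the highest for RBM38 and PLK2. Read within replicate numbers, 6 of the 9 genes were higher with siADAMTS12 at all 3 numbers, beside 28.7% of all genes tested, and because the genes were chosen from this comparison nothing is read from that count. Their 3′ UTRs ranged from 241 bases in GDF15 to 4507 bases in TP53INP1, beside a median of 1139 bases over the genes searched. The AU-rich pentamer AUUUA, an element in many short-lived transcripts, occurred at least once in 8 of them, with 14 copies in TP53INP1 and none in BBC3, and in 71.0% of the genes searched.

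By Euclidean distance over the 6 libraries (log2 values less the siCTL mean, genes with a mean of at least 50), the genes closest to RBM38 were SFXN1, GFPT1 and HIPK1, at distances of 0.209, 0.213 and 0.255. SFXN1, a serine transporter of mitochondria, had 4107 ± 72.0 normalized counts with siADAMTS12 and 1408 ± 87.3 with siCTL. Closest to PLK2 were BRPF3, SEC62 and AP3M1, at 0.0459, 0.0555 and 0.0612. SEC62, a part of the protein import channel of the endoplasmic reticulum, had 2635 ± 70.8 normalized counts with siADAMTS12 and 3978 ± 94.4 with siCTL.

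The other known p53 targets did not move as 1 group. Of 72 further direct targets, 67 were tested, of which 11 rose, 7 fell and 49 did not pass (limma, adjusted p under 0.05 over all genes). That is 16.4% higher and 10.4% lower, beside 11.5% and 15.5% of all genes tested, and their median log2 fold change was 0.09. The same 11.5% and 15.5% stand beside the counts by role below, which rest on few genes each. At an unadjusted p under 0.05 (limma), 22 of the 67 were higher and 9 lower. Over all 15637 genes tested, 2810 (18.0%) were higher and 3270 (20.9%) lower at that threshold. After quantile normalization 16 of the 67 rose and 7 fell, beside 2175 and 2078 of all 15637 genes tested. With the replicate number as a block 20 of the 67 rose and 9 fell, beside 2423 and 3059 of all 15637. The count of rises was 5 without siADAMTS12 replicate 1, 7 without siADAMTS12 replicate 3 and 4 without siCTL replicate 3. A seed match to positions 2 to 8 was found in 1 of the 11 targets that rose and 3 of the 7 that fell, beside 10.9% and 30.7% of all genes that rose and fell, and its part in these changes was not tested. Matches to positions 2 to 8 are given with the genes below. Of the genes called below, PERP, COP1 and ATF4 (lower) and PRDM1 and CREBBP (higher) held the match to positions 2 to 7 and A. The 6-base match alone was held by TRIAP1, FDXR and RAP2B (higher) and E2F1 (lower).

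**Figure D4:**
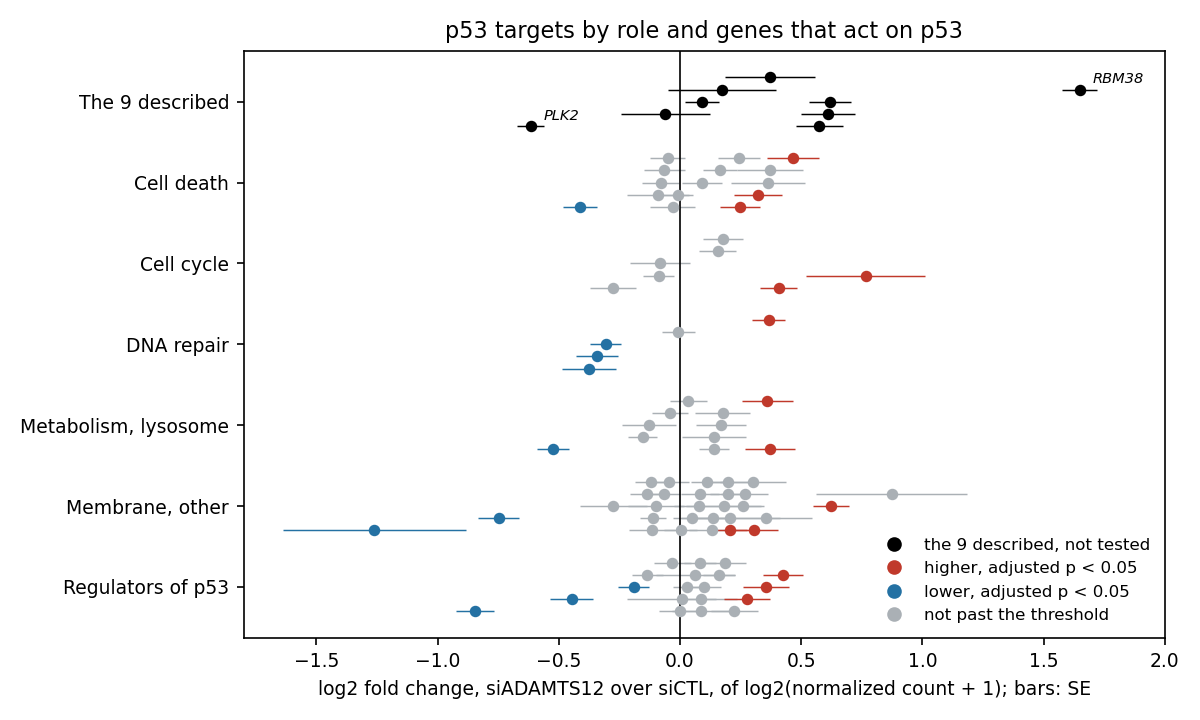
Each point is a gene, placed by its log2 fold change of siADAMTS12 over siCTL with the SE as a bar, in rows by role; colours give the limma call over all genes, and the 9 genes described above are black because they were not tested. In DNA repair 3 of 5 genes fell and 1 rose, and the other rows hold mostly genes that did not pass.

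Of 17 targets that act in cell death, 15 were tested, 3 rose and 1 fell (7 higher and 1 lower at an unadjusted p under 0.05). TP53I3, an oxidoreductase linked to reactive oxygen, rose to 623 ± 50.1 normalized counts with siADAMTS12, against 452 ± 56.3 with siCTL (limma log2 fold change 0.47 ± 0.11 SE, adjusted p = 0.00715). PIDD1, the scaffold that activates caspase-2 (0.32, adjusted p = 0.0336), and TRIAP1, a mitochondrial lipid carrier (0.25, adjusted p = 0.0431), rose by less. Both of these calls were lost without siADAMTS12 replicate 1 or 3 or siCTL replicate 2 or 3 (limma adjusted p = 0.0574 to 0.128 for PIDD1 and 0.0807 to 0.163 for TRIAP1). PERP, a desmosomal protein, fell to 1282 ± 73.4 with siADAMTS12, against 1705 ± 95.6 with siCTL (-0.41 ± 0.07 SE, limma adjusted p = 0.00130). Among the 11 that did not pass, BAX was at -0.01 ± 0.06 (SE), FAS at -0.03 ± 0.09, PMAIP1 at -0.07 ± 0.08 and TNFRSF10B at 0.09 ± 0.08 on the log2 scale. Others of the 11 lay higher, with EDA2R at 0.37 ± 0.14, TNFRSF10A at 0.36 ± 0.15, PHLDA3 at 0.24 ± 0.09 and AEN at 0.16 ± 0.07. With the replicate number as a block EDA2R and AEN rose (limma adjusted p = 0.0389 and 0.0390). PHLDA3 rose after quantile normalization (limma adjusted p = 0.0457).

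Of 8 targets that act on the cell cycle, 7 were tested, 2 rose and 0 fell by limma (2 higher and 1 lower at an unadjusted p under 0.05). ZMAT3, a zinc finger RNA-binding protein, rose to 793, 806 and 746 normalized counts with siADAMTS12, against 620, 560 and 589 with siCTL (log2 fold change 0.41 ± 0.08 SE, limma adjusted p = 0.00239), and its 3′ UTR held the 8-base match GAGGGAAA. PRDM1, a transcriptional repressor, had 46 normalized counts in each siADAMTS12 library, against 33, 30 and 19 in the siCTL libraries. Its call (limma adjusted p = 0.0385) was lost without any 1 of the 3 siADAMTS12 replicates or without siCTL replicate 2 or 3 (0.0557 to 0.121). GADD45A, a stress sensor of growth arrest, did not pass (log2 fold change -0.28 ± 0.10 SE), nor did cyclin G1, CCNG1 (0.16 ± 0.08). With the replicate number as a block GADD45A fell and CCNG1 rose (limma adjusted p = 0.0147 and 0.0366). GADD45A also fell without siADAMTS12 replicate 3 or siCTL replicate 1 (0.0135 and 0.0209), and CCNG1 rose after quantile normalization (0.0352).

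In DNA repair, 3 of the 5 targets fell and 1 rose. XPC, which recognises bulky lesions, fell to 1488 ± 72.9 with siADAMTS12, against 1838 ± 43.2 with siCTL (-0.31 ± 0.06 SE, limma adjusted p = 0.00437). DDB2, its partner for ultraviolet lesions, had 569, 549 and 481 normalized counts with siADAMTS12 and 698, 661 and 664 with siCTL (-0.34 ± 0.09 SE, limma adjusted p = 0.0120, or 0.0586 without siADAMTS12 replicate 3). RRM2B, a ribonucleotide reductase subunit, was at -0.38 ± 0.11 (limma adjusted p = 0.0275). It did not pass without siADAMTS12 replicate 3 or siCTL replicate 1 or 2 (0.0635 to 0.112), and its 3′ UTR held the 8-base match. REV3L, the catalytic subunit of translesion polymerase zeta, rose to 3133 ± 161 with siADAMTS12, against 2433 ± 169 with siCTL (0.37 ± 0.07, limma adjusted p = 0.00242).

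Of 12 targets in metabolism, redox balance and the lysosome, 11 were tested, 2 rose and 1 fell (3 higher and 2 lower at an unadjusted p under 0.05). Of those that did not pass, SAT1 rose and ULK1 fell with the replicate number as a block, and DRAM1 rose after quantile normalization. SESN2, a second sestrin, was at a log2 fold change of 0.37 ± 0.10 (SE, limma adjusted p = 0.0218). The mitochondrial reductase FDXR was at 0.36 ± 0.10 (limma adjusted p = 0.0253). SESN2 did not pass without siADAMTS12 replicate 1 or siCTL replicate 2 or 3 (0.0644 to 0.0924), nor FDXR without siADAMTS12 replicate 1 or siCTL replicate 3 (0.0944 and 0.100). STEAP3, a metalloreductase of the iron pathway, fell to 1718 ± 96.7 with siADAMTS12, against 2472 ± 106 with siCTL (-0.52 ± 0.07, limma adjusted p = 0.000148), and its 3′ UTR held the match to guide positions 2 to 8.

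Among 30 targets with membrane, secreted or other roles, 29 were tested, 3 rose and 2 fell (9 higher and 2 lower at an unadjusted p under 0.05). Of those that did not pass, ANKRA2, CMBL, KITLG, SPATA18 and TRAF4 rose with the replicate number as a block. IER5 and TRAF4 rose after quantile normalization. The small GTPase RAP2B rose to 1816 ± 110 with siADAMTS12, against 1180 ± 89.2 with siCTL (0.62 ± 0.08 SE, limma adjusted p = 0.000112). The tetraspanin CD82 fell to 942 ± 37.6 with siADAMTS12, against 1589 ± 177 with siCTL (-0.75 ± 0.09 SE, limma adjusted p = 7.17e-05), and held the match to guide positions 2 to 8. The growth factor TGFA was scarce, at 18, 7 and 10 with siADAMTS12 and 35, 19 and 31 with siCTL (limma adjusted p = 0.0289, and 0.0775 to 0.102 without siADAMTS12 replicate 2 or 3 or siCTL replicate 1 or 3). BLOC1S2 (0.30, limma adjusted p = 0.0400) and the adhesion protein NINJ1 (0.21, limma adjusted p = 0.0466) did not hold when single libraries were left out. BLOC1S2 lost its call without siADAMTS12 replicate 1 or 3 or siCTL replicate 2 or 3 (0.0643 to 0.146), and NINJ1 without siADAMTS12 replicate 2 or 3 or siCTL replicate 1 or 3 (0.111 to 0.147).

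Of 20 genes whose products act on p53, 19 were tested, 3 rose and 3 fell, so 31.6% were called beside 27.0% of all genes. With the replicate number as a block, 5 rose and 3 fell, and 1 rose without siADAMTS12 replicate 2 or siCTL replicate 1. COP1, a ubiquitin ligase that targets p53, fell to 615 ± 41.4 with siADAMTS12, against 1105 ± 44.8 with siCTL (limma log2 fold change -0.85 ± 0.08 SE, adjusted p = 1.28e-05). The 3′ UTR of COP1 held the match to guide positions 2 to 7 followed by A, as did that of CREBBP, which rose. The checkpoint kinase CHEK2 fell to 338 ± 21.6, against 461 ± 18.4 with siCTL (-0.45 ± 0.09, limma adjusted p = 0.00346). HIPK2, a kinase that phosphorylates p53, rose to 6201 ± 277, against 4640 ± 548 with siCTL (0.42 ± 0.08, limma adjusted p = 0.00274), and its 3′ UTR held the 8-base match. PPM1D, a phosphatase that switches p53 off and is also its target, was at 0.35 ± 0.09 (limma adjusted p = 0.0165, but 0.0532 without siADAMTS12 replicate 2 and 0.0619 without siCTL replicate 1). CREBBP, whose libraries overlapped between the groups, and CHEK1, at 0.28 and -0.19 (limma adjusted p = 0.0480 for both), lost their calls with each library left out in turn (0.0603 to 0.152 and 0.0626 to 0.164), except CREBBP without siADAMTS12 replicate 1. The 3′ UTR of CHEK1 held the match to guide positions 2 to 8. MDM4, the relative and partner of MDM2, did not pass (0.22 ± 0.10), but rose with the replicate number as a block (limma adjusted p = 0.0315). USP7 passed only after quantile normalization (limma adjusted p = 0.0401), and ATM, ATR and CDKN2A did not pass under any of the 12 alternatives.

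Close relatives of the 9 genes were followed because paralogues can move apart. Of 21 listed, some of which are also in the lists above, 19 were tested, 3 rose and 3 fell. That is 15.8% each way, beside 11.5% higher and 15.5% lower over all genes tested. CDKN1B, which encodes p27, rose to 4734 ± 501 with siADAMTS12, against 3184 ± 236 with siCTL (limma log2 fold change 0.57 ± 0.08 SE, adjusted p = 0.000403). PLK1, the mitotic relative of PLK2, rose to 5958 ± 560, against 4650 ± 244 with siCTL (0.35 ± 0.08, limma adjusted p = 0.00482). TP53INP2, the relative of TP53INP1, fell to 3373 ± 81.7, against 5037 ± 294 with siCTL (-0.58 ± 0.06, limma adjusted p = 4.33e-05). TOB2, of the BTG family, fell to 1086 ± 27.7, against 1964 ± 148 with siCTL (-0.85 ± 0.07, limma adjusted p = 6.81e-06). GDF11 was at -0.25 (limma adjusted p = 0.0186, and 0.0570 to 0.0778 without siADAMTS12 replicate 1 or 3 or siCTL replicate 2 or 3). All 3 relatives that fell held the match to guide positions 2 to 8 and none of the 3 that rose did. Over all genes searched, 30.7% of those that fell and 10.9% of those that rose held it. Of the 13 relatives not called, 2 held it, beside 12.5% of all genes not called. With 3 genes a side nothing is read from these counts, and the part of the match was not tested. RBM24, the paralogue of RBM38, was at 0.13 ± 0.10 (SE) and did not pass.

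p21 is known to lower cell cycle genes through the DREAM repressor complex. Of 20 such genes, 4 fell (TOP2A, BIRC5, E2F1 and CCNA2) and 1 rose (PLK1), beside 15.5% and 11.5% of all genes tested. With the replicate number as a block 5 fell and 2 rose, beside 3059 and 2423 of all 15637. These counts rest on few genes and were not tested against those of all genes. TOP2A, the topoisomerase of dividing cells, had 16058 ± 2054 normalized counts with siADAMTS12 and 20568 ± 305 with siCTL (limma log2 fold change -0.36 ± 0.08 SE, adjusted p = 0.00779). The falls in BIRC5, E2F1 and CCNA2 were small (-0.22, -0.20 and -0.18; limma adjusted p = 0.0221, 0.0257 and 0.0395), and each lost its call without at least 4 of the 6 libraries in turn (0.0530 to 0.0820 for BIRC5, 0.0672 to 0.0774 for E2F1 and 0.0567 to 0.143 for CCNA2). After quantile normalization 2 of the 20 rose and 0 fell by limma (TOP2A at limma adjusted p = 0.119). The count of falls was also 1 without siADAMTS12 replicate 1 or siCTL replicate 1 or 2, and 2 without siADAMTS12 replicate 3. The abundant mitotic genes CCNB1 and MKI67 did not pass, at -0.02 ± 0.06 and -0.01 ± 0.11 (SE).

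GDF15 and SESN2 can also be raised by the transcription factor ATF4 in the integrated stress response. Of 10 genes of that response, 0 rose and 2 fell by limma, beside 11.5% and 15.5% of all genes tested. At an unadjusted p under 0.05 (limma), 0 were higher and 3 lower, beside 18.0% and 20.9% of all genes tested. With the replicate number as a block 4 fell, beside 3059 of all 15637. Few genes stand behind these counts, and they were not tested against those of all genes. ATF4 fell to 6509 ± 255 with siADAMTS12, against 7988 ± 362 with siCTL (limma log2 fold change -0.30 ± 0.06 SE, adjusted p = 0.00414), but did not pass after quantile normalization (adjusted p = 0.138). VLDLR was at -0.28 (limma adjusted p = 0.0352, and 0.0729 to 0.137 without siADAMTS12 replicate 2 or 3 or siCTL replicate 1 or 2). The 3′ UTR of VLDLR held the match to guide positions 2 to 8. DDIT3 and TRIB3 did not pass (-0.27 ± 0.11 and -0.24 ± 0.12), but fell with the replicate number as a block (limma adjusted p = 0.0201 and 0.0126). ATF3 and CHAC1 did not pass in either fit.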

How the data were processed

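Stranded mRNA libraries from LX-2 cells were sequenced on a NovaSeq instrument, per the labels' protocols. Per the submitters' processing notes, STAR, HTSeq and DESeq2 were used with build GRCh38. Versions, gene annotation and strandedness of the counting are not given in these sources, so reads from a gene and an antisense partner cannot be told apart. The authors deposited normalized counts as whole numbers, treated here as a score and not as raw counts, so depth is unknown and count-based tests were not used.

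Genes with a mean of at least 10 were analysed as log2(value + 1), which understates fold changes of low genes. limma 3.58.1 in R 4.3.3 (lmFit, eBayes with an intensity trend) compared the groups over the 6 libraries without covariates. Benjamini-Hochberg adjustment covered every gene tested, and calls needed an adjusted p under 0.05. The fit was also run on simulated data with fewer changed genes and larger changes than most of those called here. That run does not bear on calls of small changes. Libraries with the same number shared deviations from the group mean (correlations of 0.37, 0.14 and 0.13 across genes for replicates 1, 2 and 3, against -0.19 to 0.06 for different numbers), so the replicate number was also tried as a block.

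The 9 genes and all lists were chosen with earlier results of these data known. Besides the 9 genes, up to 4 genes per list and direction were named, by the smallest adjusted p among those past the threshold, and for RBM38 and PLK2 the 3 closest genes; other list genes were named after their values were seen. Of the list of genes that act on p53, 1 is not reported here. 3′ UTRs of at least 30 bases came from GENCODE 29, with 1 transcript per gene taken by APPRIS tag, basic set and 3′ UTR length. Promoter windows came from RefSeq. Python 3.11.15, numpy 2.4.6, pandas 2.3.3 and matplotlib 3.10.9 were used.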

Additional observations from a re-analysis of the deposited data

How the results depend on the processing

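Outside the 9, 36 genes were followed, ADAMTS12 and the genes named from each list because they passed the threshold. Genes named as not passing and the closest genes are not among them. Of the 36, 16 kept their direction and call under all 12 alternatives and none reversed. The calls lost without a library are given with the genes. Without the intensity trend 16 of the 36 lost their call, with no filter 10 and after quantile normalization 8. Of 107 values of the 9 genes under these alternatives, 106 moved by less than the gene's own SD within groups on the log2 scale. The exception was PLK2 after quantile normalization (-0.46). Changes of the filter, the fit without the intensity trend and the block leave a fold change as it was, so those values could not move. Leaving out 1 of the 3 libraries of a group cannot shift a fold change by as much as this SD, so those values could not pass the limit either. Only the change of pseudocount and quantile normalization could have done so, and the count of 106 says little about stability. The SD was wide for some genes. BTG2, with an SD of 0.29, counts as not moved although its sign changed without siADAMTS12 replicate 3 (0.11). With the replicate number as a block, 2423 genes rose and 3059 fell, beside 1798 and 2424 without it; rises were 20 among the other p53 targets, 5 among genes that act on p53 and 2 among the DREAM genes, 5 DREAM genes and 4 ATF4 genes fell. None of the 36 lost its call under the block. Of the genes given as not passing, MDM4, CCNG1, EDA2R, AEN, SAT1, ANKRA2, CMBL, KITLG, SPATA18 and TRAF4 then rose. GADD45A, ULK1, DDIT3 and TRIB3 then fell. With no filter on low values, 6 other targets rose and 1 ATF4 gene fell. After quantile normalization, 7 genes that act on p53 rose, 2 DREAM genes rose and 0 fell, and 1 ATF4 gene fell. Without the intensity trend, 1 gene that acts on p53 rose, 0 DREAM genes fell and 1 ATF4 gene fell. Leaving out each library in turn gave 4 to 12 rises and 5 to 7 falls among the other targets, 1 to 3 rises among genes that act on p53, 1 to 6 falls among DREAM genes and 1 to 2 falls among ATF4 genes. The causes were not tested. Depth per library is unknown, and 3 libraries per group limit the precision, most of all for GDF15, BTG2 and BBC3.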
